A study of Homo sapiens with 10 samples.

Results

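The BMP immediate target genes ID1, ID2, ID3, ID4, SMAD6, SMAD7, BAMBI, MSX1 and MSX2 were examined in RNA sequencing of 2 Normal and 2 oeDAZL libraries, all made from derivatives of H9, a human embryonic stem cell line. The 9 genes were taken by name as direct targets of BMP-SMAD signalling. The rule uses no measured value, but the set was proposed with earlier results of these data known. All 9 had a mean of at least 1 TPM over the 4 libraries, the level required for testing, and they were tested among 16687 genes. A second identifier that bears the name ID3 was listed at 0 in all 4 libraries and was left out.

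The sample labels describe the Normal cells as wild-type H9 cells that differentiated spontaneously, and the oeDAZL cells as H9-derived human primordial germ cell-like cells (hPGCLCs) that overexpress DAZL, an RNA-binding protein of germ cells. The design text of the deposit and the study itself call both groups PGCLCs. For overexpression and silencing experiments in general, the study's methods describe a medium with fetal bovine serum, BMP4 and BMP8a, followed by lentivirus. For the miRNA libraries, the virus carried either DAZL with green fluorescent protein (GFP) or GFP alone. The cells of those libraries were collected by cell sorting, which the methods do not state for the RNA-seq cells. If the Normal RNA-seq cells were handled like the controls of the miRNA libraries, both groups received the BMPs and a virus. The sample labels instead describe spontaneous differentiation. The sources thus conflict, and DAZL and culture conditions cannot be told apart. Both groups come from 1 cell line, and no label says that the libraries of a group came from separate cultures, so p-values measure only the spread between these libraries. No library is labelled as a culture without BMP, and whether the Normal libraries are one is open, so the values are levels and differences between groups and are not read as induction by BMP.

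Bone morphogenetic proteins (BMPs) are secreted ligands that bind paired type I and type II receptor kinases. The receptors phosphorylate SMAD1, SMAD5 and SMAD9, which join SMAD4 and enter the nucleus to activate genes within a short time and without new protein synthesis. The ID genes are the best known of these targets, and several other targets, among them SMAD6, SMAD7 and BAMBI, encode inhibitors that feed back on the pathway. In human pluripotent stem cells, BMP4 drives differentiation towards amnion-like, trophoblast-like and mesodermal fates and is used to induce PGCLCs.

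SMAD complexes recognise a composite motif, here GGCGNC or GACGNC followed, after 5 bases of any kind, by GTCT. Both strands of the 3000 bases before each start site were searched in hg38 with RefSeq starts of GRCh38.p14, and no second motif was searched. The motif was present for 2 of the 9 members, against 1.65% of 27305 genes with such a window. The 3 sites are shown because they are the only matches among the members, with the motif in capitals and each sequence written on the strand of its gene.
ID1, chr20:31604378-31604392, 897 bases before the start: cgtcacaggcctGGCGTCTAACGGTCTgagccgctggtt
ID3, chr1:23559993-23560007, 492 bases before the start: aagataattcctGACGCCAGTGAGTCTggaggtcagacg
ID3, chr1:23562449-23562463, 2948 bases before the start: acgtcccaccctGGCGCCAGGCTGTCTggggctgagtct
A match is a description of the letters only, and binding was not measured.

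The BMP targets were abundant in both groups and most of them were moderately higher in oeDAZL. Both oeDAZL libraries lay above both Normal libraries for 7 of the 9 members, namely ID1, ID2, ID3, ID4, SMAD6, SMAD7 and MSX2. This arrangement was found for 16.0% of all tested genes, and the opposite one, with both oeDAZL libraries lower, for 0 members and 38.4% of the tested genes. The log2 fold change was above 0 for 8 of the 9 members and for 34.7% of the tested genes. The groups overlapped for BAMBI and MSX1. For the same 7 members limma gave an unadjusted p of at most 0.05 with a higher value in oeDAZL, which 5.02% of the tested genes reached in that direction, and no member was lower at that threshold, against 15.2% of the tested genes. Genes of high level were more often higher in oeDAZL: among the 5602 genes with a mean of at least 30 TPM, a level cut chosen after the values were seen, 9.23% were higher at that p and 24.0% had both oeDAZL libraries above both Normal libraries.

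None of the differences was large. The study's methods use a fold change of at least 2 with a P-value of at most 0.05, in DESeq2. With these cut-offs in limma, 0 of 9 members passed, against 0.689% of the tested genes, 0.126% higher and 0.563% lower. The test differs from that of the study, so these shares are not those that the study obtained. The adjusted p was under 0.05 in limma for 0 members and for 0.0599% of the tested genes, and it ran from 0.0896 to 0.923 over the members. The median log2 fold change on the log2(TPM + 1) scale was 0.33 over the members and −0.08 over all tested genes. The 95% confidence intervals of the log2 fold changes lay between −0.21 and 0.81 for every member, within the 2-fold bounds of −1 and 1.

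**Figure D1:**
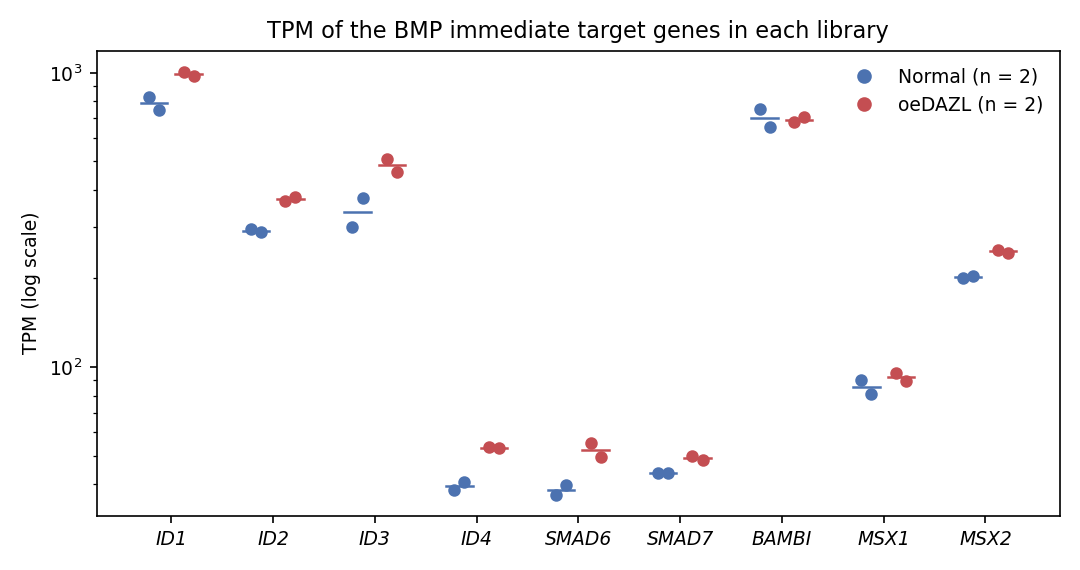
TPM of each BMP immediate target gene (horizontal axis) on a log scale (vertical axis), with 1 point per library and a line at the mean of the 2 Normal (blue) and 2 oeDAZL (red) libraries. The red points lie above the blue points for 7 genes and overlap with them for BAMBI and MSX1.

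The 4 ID genes encode small helix-loop-helix proteins without a DNA-binding region, which capture E proteins and so inhibit basic helix-loop-helix transcription factors. Gene identifiers are printed as deposited. For SMAD7 and MSX1, GENCODE 44 lists later versions, ENSG00000101665.10 and ENSG00000163132.8. ID1 (ENSG00000125968.9) spans chr20:31605283-31606515 on the forward strand, in hg38 coordinates from GENCODE 44 as for the genes that follow. It was measured at 828 and 749 TPM in Normal and at 1008 and 978 TPM in oeDAZL. It ranked 129 of 16687 by mean TPM, the highest of the 9 members, and its groups did not overlap. The mean was 788 ± 56.4 TPM (SD, n = 2) in Normal and 993 ± 20.8 TPM (SD, n = 2) in oeDAZL, 25.9% higher. The log2 fold change was 0.33 (standard error 0.06, 95% confidence interval 0.18 to 0.49, adjusted p = 0.0962 in limma).

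ID2 (ENSG00000115738.10, chr2:8678845-8684461, forward strand) was measured at 294 and 287 TPM in Normal and at 367 and 379 TPM in oeDAZL. The libraries of each group lay close together, 1.03-fold apart in both groups, and the groups were separate. For ID2 the log2 fold change was 0.36 (standard error 0.05, 95% confidence interval 0.23 to 0.48, adjusted p = 0.0896 in limma).

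ID3 (ENSG00000117318.9, chr1:23557926-23559501, reverse strand) was measured at 299 and 374 TPM in Normal and at 511 and 460 TPM in oeDAZL. It had both the largest difference between groups and the widest spread within a group among the members, with Normal libraries 1.25-fold apart. The log2 fold change was 0.53 (standard error 0.11, 95% confidence interval 0.26 to 0.81, adjusted p = 0.104 in limma). It was 0.37 without Normal replicate 1 and 0.69 without Normal replicate 2, so that its size rests in part on which Normal library is used.

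ID4 (ENSG00000172201.12, chr6:19837370-19842197, forward strand) was the least abundant ID gene, measured at 38.2 and 40.7 TPM in Normal and at 53.4 and 52.9 TPM in oeDAZL. Its groups were separate, with a log2 fold change of 0.42 (standard error 0.07, 95% confidence interval 0.25 to 0.59, adjusted p = 0.0896 in limma).

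Summed over the family, ID1 to ID4 took 1460 and 1451 TPM in the Normal libraries and 1938 and 1871 TPM in the oeDAZL libraries, a difference of 30.9% between the means. The make-up of the sum was similar in the 4 libraries. ID1 made up 51.6% to 56.7% of it, ID2 18.9% to 20.3%, ID3 20.5% to 26.3% and ID4 2.61% to 2.83%. Normal replicate 1 had the highest share of ID1 and the lowest share of ID3, with an ID1 to ID3 ratio of 2.77 against 1.97 to 2.12 in the other libraries.

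SMAD6 and SMAD7 encode the inhibitory SMADs. SMAD6 acts mainly on BMP signalling, whereas SMAD7 acts on both BMP and TGF-beta signalling and is itself induced by both. SMAD6 (ENSG00000137834.15, chr15:66702236-66782849, forward strand) was measured at 36.9 and 39.8 TPM in Normal and at 55.0 and 49.4 TPM in oeDAZL. Its groups were separate, and its log2 fold change was 0.44 (standard error 0.08, 95% confidence interval 0.23 to 0.64, adjusted p = 0.0961 in limma).

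SMAD7 (ENSG00000101665.9, chr18:48919853-48950965, reverse strand) was measured at 43.6 and 43.8 TPM in Normal and at 49.9 and 48.3 TPM in oeDAZL. The groups were separate but the difference was small. The log2 fold change was 0.16 (standard error 0.07, 95% confidence interval 0.0046 to 0.32), with an unadjusted p = 0.0454 and an adjusted p = 0.238 in limma. The unadjusted p in limma lay between 0.0639 and 0.247 with any 1 of the 4 libraries left out, so the place of SMAD7 among the 7 higher members depends on the full set of libraries. SMAD7 was above SMAD6 in both Normal libraries, with a TPM ratio of 1.18 and 1.10, and below it in both oeDAZL libraries, with a ratio of 0.907 and 0.977.

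BAMBI encodes a transmembrane pseudoreceptor that resembles a type I receptor but lacks the kinase domain, and it dampens BMP and TGF-beta signalling. The gene (ENSG00000095739.11, chr10:28677510-28682932, forward strand) was measured at 754 and 653 TPM in Normal and at 678 and 708 TPM in oeDAZL, so that both oeDAZL libraries fell between the Normal ones. Although second in level among the members, BAMBI showed no detectable difference. Its log2 fold change was −0.02 (standard error 0.08, 95% confidence interval −0.21 to 0.17, adjusted p = 0.923 in limma), and the sign turned with median-of-ratios scaling, which gave 0.084. The interval corresponds to 0.866-fold to 1.13-fold. Its value was 0.086 without Normal replicate 1 and −0.12 without Normal replicate 2, the latter with an unadjusted p = 0.0497 in limma.

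MSX1 and MSX2 encode homeobox transcription factors that act downstream of BMP in limb, tooth, neural crest and extraembryonic tissue. MSX1 (ENSG00000163132.7, chr4:4859665-4863936, forward strand) was measured at 90.6 and 80.9 TPM in Normal and at 95.7 and 89.5 TPM in oeDAZL. The lower oeDAZL library lay under the higher Normal library. For MSX1 the log2 fold change was 0.11 (standard error 0.08, 95% confidence interval −0.08 to 0.30, adjusted p = 0.458 in limma). It was 0.21 with median-of-ratios scaling and 0.19 without Normal replicate 1, with unadjusted p-values of 0.0249 and 0.0380 in limma, whereas without Normal replicate 2 it was 0.03.

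MSX2 (ENSG00000120149.9, chr5:174724582-174730896, forward strand) was measured at 201 and 205 TPM in Normal and at 249 and 245 TPM in oeDAZL. The 2 libraries of each group agreed within 1.02-fold, and the groups were separate. For MSX2 the log2 fold change was 0.28 (standard error 0.05, 95% confidence interval 0.16 to 0.41, adjusted p = 0.0896 in limma). MSX2 exceeded MSX1 in every library, by 2.21-fold and 2.53-fold in Normal and by 2.61-fold and 2.73-fold in oeDAZL.

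**Figure D2:**
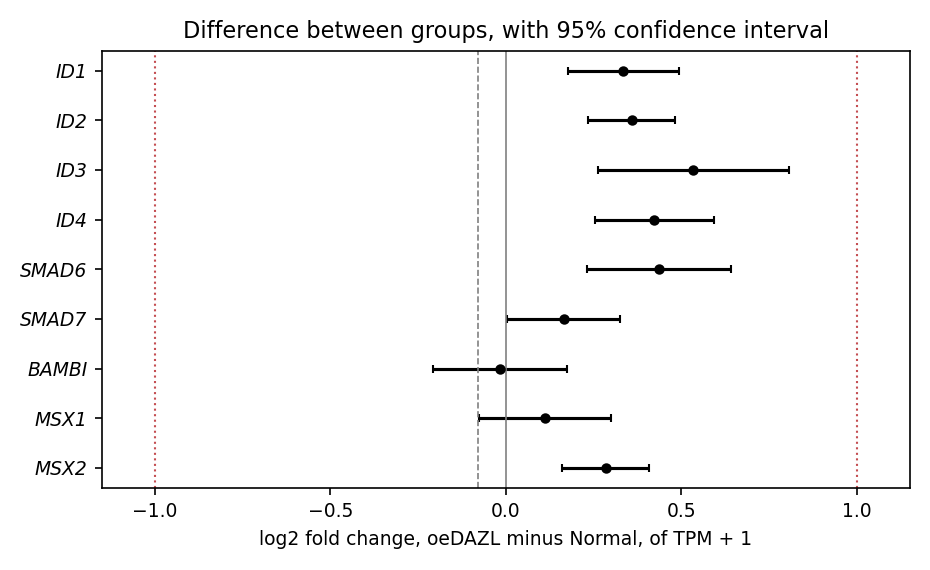
Log2 fold change of TPM + 1, oeDAZL minus Normal (horizontal axis), for each member, with the 95% confidence interval from limma. The dashed line marks the median of all tested genes at −0.08 and the dotted lines mark a 2-fold change, and the intervals of BAMBI and MSX1 include 0 while no interval reaches the dotted lines.

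The members spanned a wide range of levels, from percentile 76.8 to percentile 99.2 of the tested genes by mean TPM, a measure per transcript length. The order was ID1, BAMBI, ID3, ID2, MSX2, MSX1, SMAD7, ID4 and SMAD6. In the Normal libraries the values of ID1 and BAMBI overlapped, and so did those of ID4 and SMAD6, and in oeDAZL those of ID1 and BAMBI were separate. SMAD7 was above ID4 in both Normal libraries and below it in both oeDAZL libraries. Together the 9 genes took 2586 and 2472 TPM in the Normal libraries and 3067 and 3011 TPM in the oeDAZL libraries. The mean of these sums was 20.2% higher in oeDAZL.

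The groups were separate for the 4 ID genes, SMAD6 and MSX2, so their direction could not change without any 1 library, and only the sizes are informative. Leaving out 1 library at a time, log2 fold changes stayed between 0.26 and 0.41 for ID1, 0.33 and 0.38 for ID2, 0.37 and 0.69 for ID3, 0.38 and 0.47 for ID4, 0.36 and 0.51 for SMAD6 and 0.27 and 0.30 for MSX2. All of these had an unadjusted p of at most 0.0245 in limma. Adjusted p-values depended more on the libraries: without Normal replicate 2 they were under 0.05 in limma for 5 members, ID1, ID2, ID3, ID4 and MSX2, between 0.0361 and 0.0496, in a fit in which 673 of all genes passed in place of 10. That replicate lay between Normal replicate 1 and the oeDAZL libraries on the first principal component, on which Normal stood at −30.1 and −7.97 and oeDAZL at 22.4 and 15.7. Libraries held 16342 to 17239 genes of at least 1 TPM. Mitochondrial genes took 12.6% and 13.4% of TPM in Normal and 14.1% and 13.9% in oeDAZL. Without these genes the members had a median of 0.35 in place of 0.33.

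**Figure D3:**
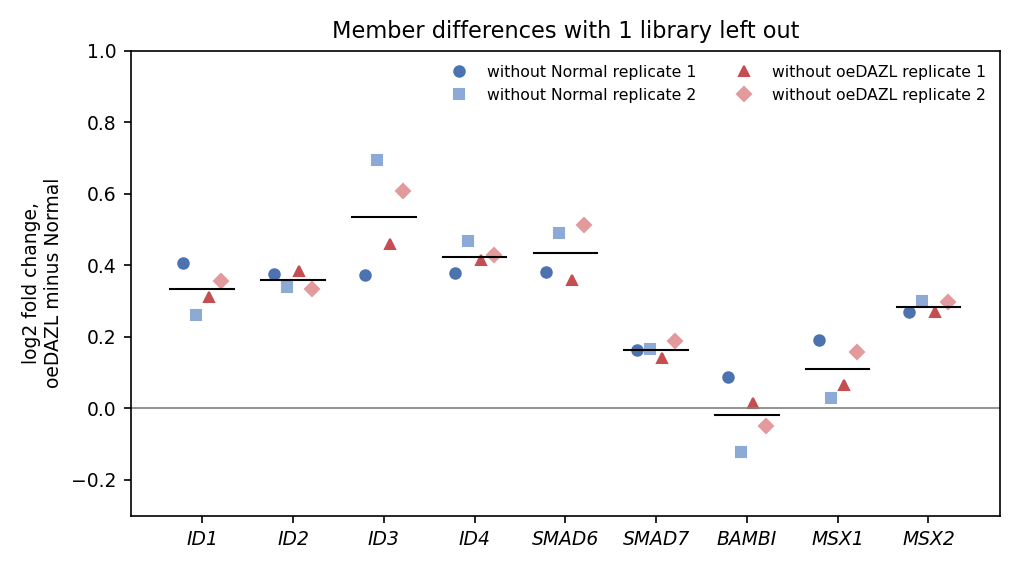
Log2 fold change, oeDAZL minus Normal (vertical axis), of each member with all 4 libraries (black line) and with 1 library left out (coloured symbols). All symbols of ID1, ID2, ID3, ID4, SMAD6, SMAD7 and MSX2 lie above 0, which follows from the separation of their groups. Those of BAMBI lie on both sides of 0, and ID3 is spread most, between 0.37 and 0.69.

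Other genes of the BMP pathway were compared from lists of known components. Counts for these and all later lists stand beside 5.02% of all tested genes higher and 15.2% lower at an unadjusted p of at most 0.05 in limma. Several ligand genes were lower in oeDAZL. Of 12 ligand genes, 8 passed the TPM filter, 0 of these were higher and 3 were lower at an unadjusted p of at most 0.05, which were BMP4, GDF6 and BMP7, and the median log2 fold change was −0.37. BMP4, the ligand that the methods also add as protein, was measured at 271 and 248 TPM in Normal and at 154 and 170 TPM in oeDAZL. Its groups did not overlap, and its log2 fold change was −0.68 (standard error 0.07, 95% confidence interval −0.86 to −0.50, adjusted p = 0.0836 in limma), between −0.75 and −0.58 under every alternative run. GDF6, a BMP-family ligand, was at 130 and 111 TPM in Normal and at 83.7 and 87.1 TPM in oeDAZL, with a log2 fold change of −0.49 (standard error 0.09, adjusted p = 0.0896 in limma). BMP7 lost the unadjusted p of 0.05 under at least 1 alternative. BMP6 was at 5.32 and 6.18 TPM in Normal and at 7.71 and 6.91 TPM in oeDAZL, with both oeDAZL libraries higher (log2 fold change 0.30, standard error 0.14, adjusted p = 0.302 in limma), and BMP2 was within the Normal range. Protein added to the medium leaves no RNA, so these values describe ligand transcripts of the cells alone.

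Receptors and signalling SMADs differed less. Of 11 receptor and co-receptor genes, 8 were tested, 1 was higher and 0 were lower at an unadjusted p of at most 0.05. The higher one was BMPR2, the type II BMP receptor, at 30.1 and 28.7 TPM in Normal and at 36.7 and 34.0 TPM in oeDAZL (log2 fold change 0.26, standard error 0.08, adjusted p = 0.171 in limma, unadjusted p up to 0.148 among the alternatives). BMPR1A, a type I receptor, was at 25.5 and 29.7 TPM in Normal and at 29.1 and 30.3 TPM in oeDAZL, with overlapping groups. Of the 4 signalling SMADs, SMAD1, SMAD5, SMAD9 and SMAD4, 0 reached an unadjusted p of 0.05 in limma in either direction. SMAD5 was at 52.1 and 48.5 TPM in Normal and at 48.2 and 47.6 TPM in oeDAZL, and SMAD4 was at 51.4 and 44.5 TPM in Normal and at 43.3 and 44.5 TPM in oeDAZL.

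Antagonists differed in both directions. Of 18 genes for antagonists and extracellular modulators, 14 were tested, of which 3 were higher (NOG, FSTL1 and BMPER) and 3 were lower (FST, SOSTDC1 and CER1) at an unadjusted p of at most 0.05. NOG encodes noggin, which binds BMPs outside the cell, and was at 78.2 and 94.8 TPM in Normal and at 108 and 98.9 TPM in oeDAZL (log2 fold change 0.26, standard error 0.10, adjusted p = 0.231 in limma). The value was 0.13 without Normal replicate 1 and 0.40 without Normal replicate 2. FSTL1, a secreted glycoprotein of the follistatin family, was at 502 and 560 TPM in Normal and at 640 and 598 TPM in oeDAZL (log2 fold change 0.22, standard error 0.07, adjusted p = 0.178 in limma). CER1 encodes cerberus, an antagonist of BMP and nodal, and was at 4.53 and 3.71 TPM in Normal and at 1.55 and 1.84 TPM in oeDAZL.

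Of 14 genes for intracellular modulators of the pathway, all 14 were tested, 1 was higher (SKIL) and 2 were lower (CTDSP1 and CTDSP2) at the same threshold. CTDSP2, a small C-terminal domain phosphatase that can dephosphorylate SMADs, was at 110 and 99.9 TPM in Normal and at 79.6 and 84.6 TPM in oeDAZL (log2 fold change −0.35, standard error 0.07, adjusted p = 0.103 in limma). FKBP1A, which binds type I receptors, was at 231 and 258 TPM in Normal and at 245 and 240 TPM in oeDAZL, within the Normal range.

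A further list of 24 genes reported to respond to BMP-SMAD signalling, many of them lineage regulators, was mixed. Of its 20 tested genes, 4 were higher (HAND1, TBX3, DLX2 and GATA2) and 2 were lower (CDX2 and ZNF503) at an unadjusted p of at most 0.05, and the median log2 fold change was 0.08. That median was 0.0098 without Normal replicate 1 and 0.21 without Normal replicate 2, and GATA2 and TBX3 lost the unadjusted p of 0.05 under at least 1 alternative. HAND1, a helix-loop-helix factor of mesoderm and extraembryonic tissue, was at 958 and 1042 TPM in Normal and at 1250 and 1247 TPM in oeDAZL (log2 fold change 0.32, standard error 0.06, adjusted p = 0.0918 in limma). TBX3, a T-box repressor, was at 192 and 192 TPM in Normal and at 225 and 220 TPM in oeDAZL (log2 fold change 0.21, standard error 0.05, adjusted p = 0.118 in limma). CDX2, a caudal-type homeobox factor, was at 22.8 and 20.4 TPM in Normal and at 12.3 and 13.7 TPM in oeDAZL. CDX2 and ZNF503 thus differed from the 7 higher members in direction.

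**Figure D4:**
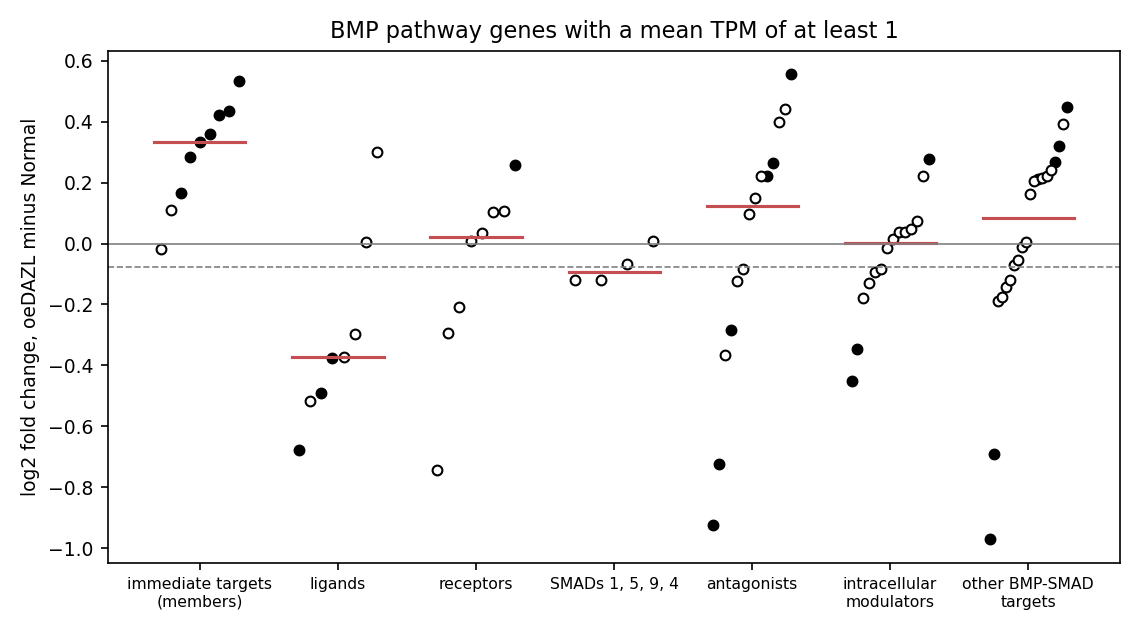
Log2 fold change, oeDAZL minus Normal (vertical axis), of the members and of tested genes in 6 lists of the BMP pathway (horizontal axis), with filled points for an unadjusted p of at most 0.05 in limma, red lines at list medians and a dashed line at the median of all tested genes. The members have a median of 0.33 and the ligands one of −0.37.

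SMAD7, BAMBI and the ID genes also respond to TGF-beta or activin, and ID genes to serum. Targets of nodal, activin and TGF-beta differed in both directions, with a median log2 fold change of 0.09 over 11 tested genes that turned to −0.11 without Normal replicate 1. PMEPA1, SKIL and LTBP2 were higher in oeDAZL at an unadjusted p of at most 0.05, with log2 fold changes of 0.51, 0.28 and 0.64. TGFBI and COL1A1 were lower. TGFBI, an extracellular matrix protein named for its induction by TGF-beta, was at 1291 and 1125 TPM in Normal and at 950 and 1103 TPM in oeDAZL (log2 fold change −0.24, standard error 0.10, adjusted p = 0.246 in limma), and COL1A1, a collagen chain, was at 729 and 651 TPM in Normal and at 455 and 486 TPM in oeDAZL (log2 fold change −0.55, standard error 0.07, adjusted p = 0.0885 in limma). The value of TGFBI was −0.13 without oeDAZL replicate 1 and −0.34 without oeDAZL replicate 2, and the unadjusted p in limma reached 0.330 among the alternatives.

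Among 10 E-protein and other helix-loop-helix genes whose products are bound or opposed by ID proteins, 6 were tested, 2 were higher (HES1 and TWIST2) and 0 were lower at an unadjusted p of at most 0.05. The E-protein gene TCF3 was at 136 and 132 TPM in Normal and at 126 and 121 TPM in oeDAZL (log2 fold change −0.12, standard error 0.06, adjusted p = 0.288 in limma), and TCF4 was at 87.0 and 65.2 TPM in Normal and at 65.2 and 65.1 TPM in oeDAZL (log2 fold change −0.21, standard error 0.13, adjusted p = 0.419 in limma). The value of TCF4 was −0.0019 without Normal replicate 1 and −0.41 without Normal replicate 2. HES1 and TWIST2 lost the unadjusted p of 0.05 under at least 1 alternative. ID1 transcripts were several times more abundant per length than those of TCF3 in every library.

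The BMP targets are expressed by many cell types, and in bulk RNA a change in the share of a cell type and a change in RNA per cell cannot be told apart. Germ cell markers were low. Of 9 PGC markers, 8 were tested, 1 was higher (PDPN) and 0 were lower at an unadjusted p of at most 0.05 in limma. NANOS3 was at 1.39 and 1.66 TPM in Normal and at 1.07 and 0.732 TPM in oeDAZL. SOX17 was at 2.52 to 3.35 TPM over the 4 libraries, and DND1 was under 1 TPM in each. The sum of the 9 PGC markers was 148 and 166 TPM in Normal and 162 and 163 TPM in oeDAZL, most of it TFAP2C, PDPN and ALPL, which other cell types express as well. Amnion and trophoblast markers were high, with a sum of 3614 and 3463 TPM over 10 markers in Normal and 3661 and 3708 TPM in oeDAZL. GABRP was at 1408 and 1208 TPM in Normal and at 1221 and 1276 TPM in oeDAZL. Of these 10 markers, 1 was higher (HAND1) and 5 were lower (CDX2, VTCN1, ISL1, CGA and XAGE2) at an unadjusted p of at most 0.05 in limma, with 1 also past the 2-fold threshold, CGA (log2 fold change −1.18, standard error 0.22, adjusted p = 0.0896).

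The 10 mesoderm and mesenchyme markers summed to 948 and 762 TPM in Normal and to 417 and 428 TPM in oeDAZL. COL3A1, a fibrillar collagen, made up most of that difference (log2 fold change −1.25, standard error 0.09, adjusted p = 0.0344 in limma), and of 7 tested markers 0 were higher and 3 (TBXT, COL3A1 and LUM) were lower at an unadjusted p of at most 0.05. Endothelial cells express ID1 and ID3 strongly. The sum of 8 endothelial markers was 23.6 and 27.4 TPM in Normal and 20.2 and 20.7 TPM in oeDAZL. Of these markers, 4 were under 1 TPM in every library, among them PECAM1, listed at 0 in all. KDR, the one tested marker past an unadjusted p of 0.05 in limma, was lower in oeDAZL. TEK was at 5.34 and 6.18 TPM in Normal and at 5.57 and 6.72 TPM in oeDAZL. CDH5 was at 1.92 and 2.49 TPM in Normal and at 2.04 and 2.56 TPM in oeDAZL. The groups overlapped for TEK and CDH5. Neural crest cells express MSX1, MSX2 and ID genes. Of 8 neural crest and neural markers, 4 were tested, 1 was higher (NES) and 1 was lower (PAX6) at an unadjusted p of at most 0.05 in limma. NES took most of the sum, 253 and 347 TPM in Normal and 440 and 409 TPM in oeDAZL, with a log2 fold change of 0.52. SOX10, FOXD3 and TFAP2B were highest in Normal replicate 1. SOX10 was at 1.77 and 0.259 TPM in Normal and at 0.132 and 0.288 TPM in oeDAZL. FOXD3 was at 1.79 and 0.155 TPM in Normal and at 0.184 and 0.159 TPM in oeDAZL. TFAP2B was at 4.74 and 1.93 TPM in Normal and at 1.66 and 1.39 TPM in oeDAZL. PAX3 was at 3.71 and 3.70 TPM in Normal and at 3.51 and 2.61 TPM in oeDAZL. PAX6 passed the 2-fold threshold, at 3.83 and 1.14 TPM in Normal and at 0.0967 and 0.558 TPM in oeDAZL, and did not reach an unadjusted p of 0.05 in every alternative. Smooth muscle markers summed to 1337 and 1756 TPM in Normal and 1492 and 1437 TPM in oeDAZL over 6 genes, with ACTA2 lower. TAGLN took most of that sum, at 899 and 1208 TPM in Normal and at 1090 and 1045 TPM in oeDAZL, with overlapping groups. Among 7 pluripotency markers, 3 of the 6 tested (POU5F1, TDGF1 and DNMT3B) were higher at an unadjusted p of at most 0.05 in limma and 0 were lower. The other 3 tested, SOX2, LIN28A and DPPA4, had both oeDAZL libraries below both Normal libraries, an arrangement found for 38.4% of all tested genes. Their log2 fold changes were −0.60, −0.14 and −0.11, and the median of the 6 was 0.07. LIN28A, the most abundant, was at 476 and 428 TPM in Normal and at 417 and 401 TPM in oeDAZL. NANOG was under 1 TPM in every library. NOG, FSTL1, SKIL, LTBP2, TDGF1, DNMT3B, PDPN, ISL1, XAGE2 and TBXT also missed an unadjusted p of 0.05 under at least 1 alternative. The part of these cell types in the levels of the BMP targets was not tested.

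Profiles like those of the leading members were found among genes outside the pathway. For ID3, the member with the largest difference, the tested genes with the closest profile over the 4 libraries were KLRG2, KRT80 and ABTB2, at root mean square distances of 0.0053, 0.017 and 0.018 on the log2(TPM + 1) scale after centring. For ID1, the most abundant member, they were UNG, TMEM33 and TP53BP2, at distances of 0.015, 0.019 and 0.019. Among the other members, SMAD6 was nearest to ID3, at 0.090, and ID2 was nearest to ID1, at 0.052. In each case 36 tested genes lay within 0.05. Genes outside the set far outnumber the other members, and only 4 libraries were compared. Closer matches outside the set are thus likely for any gene, and whether the members share a profile was not tested.

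DAZL was listed measured at 0 and 0.0333 TPM in Normal and at 102 and 101 TPM in oeDAZL. DAZL recognises GUU in RNA, and the study followed the let-7 and miR-199a miRNAs among others. The 3′UTRs of the members were therefore searched for GTT in the DNA sequence and for 8mer sites of let-7a-5p, miR-199a-5p and miR-199a-3p. An 8mer site is the complement of miRNA positions 2 to 8 followed by A. Sites of the other miRNAs that the study followed were not searched. The longest 3′UTR of each gene in GENCODE 44 was used. The let-7a-5p 8mer was found in 0 of 9 members, against 4.81% of 19595 genes, and the miR-199a-5p 8mer in 0, against 5.13%. The miR-199a-3p 8mer was found in 1 member, ID4, against 2.84% of genes. It is shown with the miRNA because it is the only such site among the members, with the seed and the 8mer in capitals.
miR-199a-3p, mature sequence from RefSeq: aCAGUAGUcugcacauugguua
ID4, chr6:19841597-19841604 on the forward strand, base 2405 of the 3′UTR: ggcatgaaaaACTACTGAaagaagaaaa
GTT occurred 1.13 to 2.03 times per 100 bases of 3′UTR in the members, with a median of 1.5 and the highest value in ID4, against a median of 1.43 over 19020 genes, and 5 of the 9 lay above that median. Among the members, ID4 had the only 8mer found and the most GTT, but also the longest 3′UTR, of 3005 bases. The other members had 518 to 1522 bases, and the median over 19595 genes was 1516. The shares of all genes above are not matched for length. The TPM of ID4 was higher in oeDAZL, by 34.9% between the means. ID1, ID2, ID3, SMAD6, SMAD7 and MSX2, without any of these 8mers, were also higher. A part of the site in the ID4 value was not tested.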

How the data were processed

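The authors deposited TPM values for each gene (transcript abundance scaled for length and to a fixed total per library) of the 4 RNA-seq libraries. Per the methods and the submitters' processing notes, reads were mapped to hg38 with HISAT2 2.1.0 and quantified with StringTie 2.1.4, and the annotation release is not given in the sources used here. TPM keeps no depth, so no counting interval was computed. The 6 miRNA libraries were not analysed here.

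From 65003 entries, 45 pseudoautosomal copies on chromosome Y and 18 repeats of a gene were left out. After a filter on mean TPM (at least 1), 16687 genes were fitted on log2(TPM + 1) with limma 3.58.1 (eBayes with trend), oeDAZL against Normal without covariates, with Benjamini-Hochberg adjustment over all of them. This scale understates the change of low genes. An exact permutation test of 2 against 2 libraries cannot give a p under 0.333, so none was run. The fit was tested on simulated data. Named beside the 9 members are, of each list, genes past the fold and p thresholds and the 2 of highest mean TPM, and the 3 nearest profiles of ID1 and ID3. Other names were chosen after their values were seen. 1 gene of the list of nodal, activin and TGF-beta targets is not reported here, so that list is given without full counts. Members and lists were chosen with earlier results of these data known. Alternatives changed the pseudocount, filter, scaling, mitochondrial genes, replicate block, variance trend and libraries. All 11 RefSeq start windows of the members were identical to hg38.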

Additional observations from a re-analysis of the deposited data

How the results depend on the processing

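The count of 0 members past both the fold and the P-value thresholds was the same under all 13 alternative fits and with an adjusted p under 0.05, and it was 7 with an unadjusted p and no minimum fold. In the fits with all 4 libraries, 6 to 8 members were higher at an unadjusted p of at most 0.05 in limma. The count was 8 under median-of-ratios scaling, where 11.2% of all tested genes were higher at that p, against 5.02% in the main fit. That share of all genes was 8.40% with quantile normalization, 4.02% with the replicate block and 3.26% without the filter on TPM. The median log2 fold change of the members was 0.44 with median-of-ratios scaling, where that of all genes moved from −0.08 to 0.01, and 0.30 to 0.37 with 1 library left out. BAMBI turned to 0.084 with median-of-ratios scaling, was 0.086 without Normal replicate 1 and ranged from −0.12 to 0.086 with 1 library left out; the cause was not tested. MSX1 passed an unadjusted p of 0.05 with that scaling (0.21) and without Normal replicate 1 (0.19). SMAD7 did not pass it without the trend, with the block or with any library left out. In leave-one-out fits the lone library is assumed to vary like the other group.

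Same-numbered libraries share only a number, and the correlation of their deviations from the group means was −0.10. The replicate block left 6 members higher at an unadjusted p of at most 0.05 and 0 with an adjusted p under 0.05, and 4 of all genes with an adjusted p under 0.05 in place of 10. With the pairs crossed, a choice made after seeing the data, 6 members and 1089 of all genes had an adjusted p under 0.05. Read depth is unknown, and 2 libraries a group limit the precision.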
